A study of Homo sapiens with 27 samples.

Results

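SUM44 LTED-A, a long-term estrogen-deprived (LTED) variant of the SUM44 cell line, was compared with SUM44F, the culture from which it was derived, across all expressed genes. Of the 27 RNA-Seq libraries of the series, 6 enter this comparison, the 3 named LTED-A and the 3 named SUM44F parental. SUM44 is an estrogen receptor-positive (ER+) line from a human invasive lobular breast carcinoma. SUM44F cells are SUM44PE cells that had been kept for some months in another medium, and they were hormone-deprived for 3 days before collection. LTED-A cells had been maintained for months in medium with charcoal-stripped serum, which is poor in steroid hormones. LTED-A is 1 derivation, LTED-B is another from the same parental culture, and the replicates of each group are wells of 1 culture, so p-values measure the spread between wells and not between derivations. Both groups were therefore short of estrogen when they were collected, the parental cells for days and LTED-A for far longer.

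In ER+ breast cancer cells, estrogen bound to the receptor drives genes such as TFF1 and PGR and pushes cells from G1 into S phase through cyclin D1, CDK4/6 and the release of E2F factors from the pocket proteins. E2F factors then switch on genes for DNA replication, and FOXM1 and MYBL2 act later in the cycle on genes for mitosis. Cells that must grow without estrogen are used as a laboratory model of resistance to aromatase inhibitors, which block estrogen synthesis.

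The deposited estimated counts summed to 44487388, 49294696 and 76250461 in SUM44F and to 39941907, 134882175 and 111689734 in LTED-A. Replicates 2 and 3 of LTED-A differed by less than sampling noise (chi-square per degree of freedom 0.312, against 2.35 to 58.2 for the other 26 pairs of replicates in the series) and were averaged into 1 sample, which leaves 5 samples, 3 of SUM44F and 2 of LTED-A. Levels are given as CPM, the counts of a gene relative to the library total scaled by TMM, first for SUM44F replicates 1 to 3 and then for LTED-A replicate 1 and the mean of replicates 2 and 3. CPM are not corrected for gene length, so levels are compared between samples and not between genes. Tests are two-sided quasi-likelihood F tests of edgeR with Benjamini-Hochberg adjustment over all genes, log2 fold changes are LTED-A minus SUM44F and are given with their standard error (SE), and a gene was called differentially expressed (DE) when its fold change was above 1.5 and its adjusted p below 0.001. The fitted model also held the 3 LTED-B libraries, which share in the estimate of the spread behind each SE and p. "Rose" and "fell" are used only for DE genes.

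Over all genes, SUM44F replicate 3, the deepest of the 3, differed most from the others (chi-square per degree of freedom 42.8 and 39.2 against replicates 1 and 2, and 14.1 between these), a value that also grows with depth. In replicate 3, 11 genes with at least 1 CPM, 2 of them protein coding, were more than 8 times higher than in either of the other SUM44F libraries (743 CPM in sum). SUM44F replicate 1 stood apart in protein-coding genes. In this library, 62 genes, 58 of them protein coding (938 CPM in sum), passed the same limits, led by COL3A1, COL1A1, VCAN, PAEP, DCN and TIMP3. COL3A1, a fibrillar collagen chain, was at 135.1, 0.703 and 0.470 CPM in SUM44F and at 0.0496 and 0.0352 CPM in LTED-A. The summed level of 10 markers of fibroblasts and endothelium was 408, 40.8 and 34.4 CPM in SUM44F and 10.3 and 7.85 CPM in LTED-A. One of these markers, PECAM1, had a mean of 25.4 CPM in SUM44F and 1.98 CPM in LTED-A. It made up the larger part of the sum in SUM44F replicates 2 and 3. The summed level of 10 immune cell markers was 11.7, 3.20 and 3.77 CPM in SUM44F and 2.08 and 1.75 CPM in LTED-A, with between 2 and 4 of them at 0 in each of these samples. The summed level of 8 luminal markers was 7266, 7240 and 6244 CPM in SUM44F and 8732 and 9792 CPM in LTED-A. That of 8 basal markers was 17.6, 12.9 and 12.8 CPM in SUM44F and 8.59 and 5.50 CPM in LTED-A. In these bulk samples, fewer cells of a type and less RNA per cell cannot be told apart. Whether transcripts that set SUM44F replicate 1 apart came from the cells of that culture or were carried over from another sample was not tested. LTED-A replicate 1 differed from replicates 2 and 3 with a chi-square per degree of freedom of 58.15 and 56.6, the highest values of the series. Replicates 2 and 3 are also its deepest libraries. In LTED-A replicate 1, 23 genes stood more than 8 times over the other LTED-A sample.

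**Figure D1:**
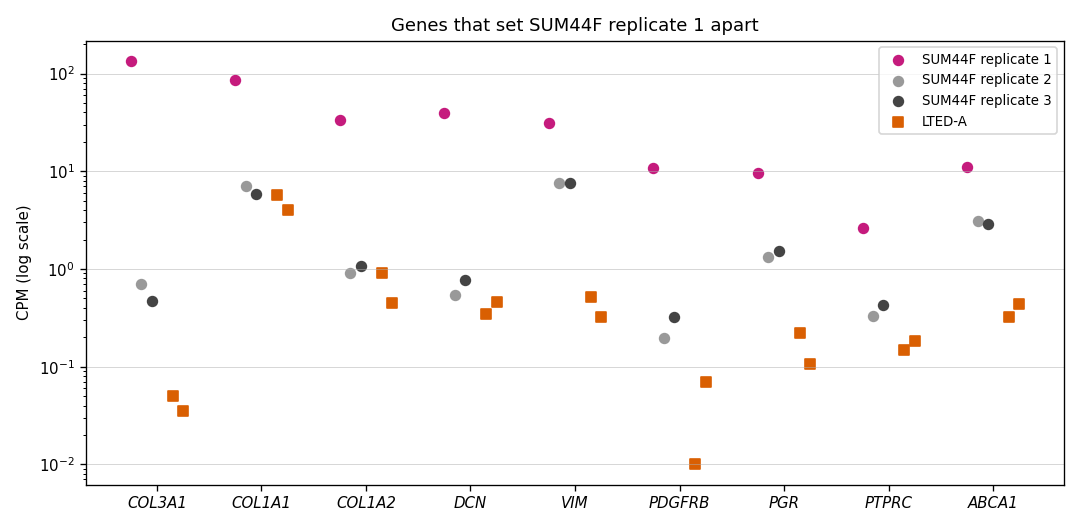
Normalized CPM on a log scale of 9 genes in the 3 SUM44F libraries (circles) and the 2 LTED-A samples (squares), with a value of 0 drawn at 0.01. SUM44F replicate 1 lies above the other SUM44F libraries for each of these genes, for example at 135.1 CPM of COL3A1 against 0.703 and 0.470 CPM.

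Of 26834 genes tested, 1947 (7.26%) were higher in LTED-A and 2258 (8.41%) were lower, 15.7% in all. Without SUM44F replicate 1, 1989 of 26719 genes (7.44%) were higher and 8.11% lower, and 3913 of these were DE in the same direction with it. Without LTED-A replicate 1, which leaves 1 LTED-A sample that is assumed to vary like the other groups, 1811 genes were higher and 1486 lower. Without SUM44F replicate 3 the numbers were 1693 and 1997. The falls were the larger changes: the median log2 fold change was 0.96 among genes that rose and -1.52 among genes that fell, and of 1058 DE genes that changed more than 4-fold, 815 fell. Over all genes tested the median was -0.06. The samples of the 2 groups did not overlap for 52.9% of genes tested. Protein-coding genes were called more often (1685 of 15603 rose and 1835 fell) than long noncoding RNA genes (155 of 6239 rose and 284 fell). The lists below hold mainly protein-coding genes, of which 10.8% rose and 11.8% fell. Counts near or below these shares, as for steroid receptors or cadherins and catenins, are given as description and show no shift of the list. In LTED-A, 39 genes with at least 1 CPM in SUM44F were below detection, defined as 3 counts or fewer in every sample, and 6 genes showed the reverse.

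**Figure D2:**
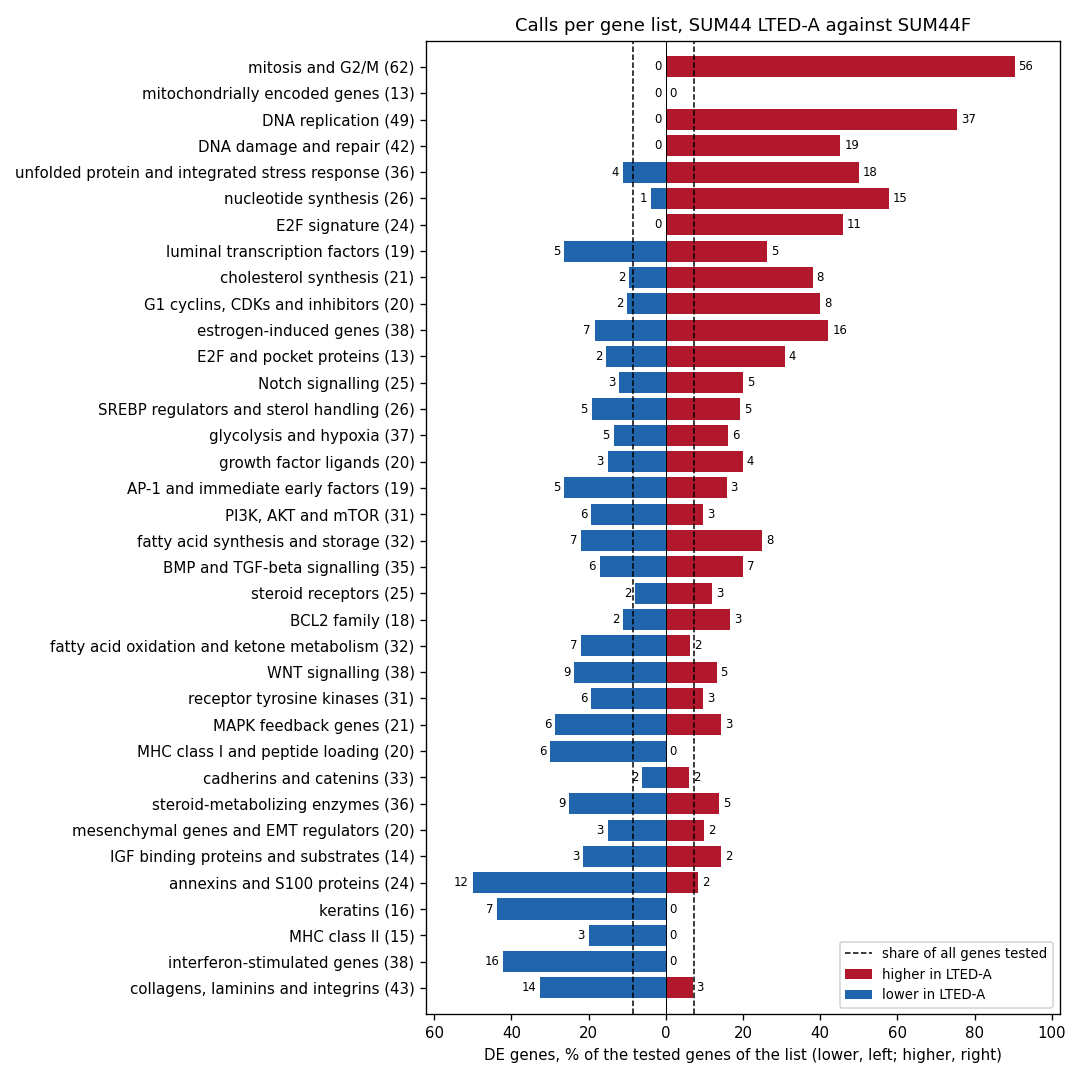
Share of the tested genes of each list that rose (red, right) or fell (blue, left) in LTED-A, in percent, with the number of genes at each bar and the number tested in brackets after the name of the list. Lists are ordered by their median log2 fold change, and the dashed lines are the shares of all genes tested (7.26% higher and 8.41% lower). Among protein-coding genes these shares were 10.8% and 11.8%. The list for mitosis has 56 of 62 genes to the right, and the lists for interferon-stimulated genes and keratins have bars on the left only.

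Genes of the cell cycle moved together. Of 62 tested genes for mitosis and G2/M, 56 rose and the other 6 did not pass the test (median log2 fold change 1.02). SKA3, a subunit of a complex that couples kinetochores to microtubules, was at 10.0, 9.58 and 9.19 CPM in SUM44F and 81.1 and 94.2 CPM in LTED-A (log2 fold change 3.19, SE 0.09, adjusted p = 2.0e-12). CENPE, the kinetochore motor, was at 41.0, 43.0 and 47.7 CPM and 168 and 218 CPM, a rise of 2.13 on the log2 scale (SE 0.11, adjusted p = 6.5e-10). For both genes, both LTED-A samples lay far above every SUM44F library. The spindle checkpoint gene MAD2L1 (1.80), cyclin A2 (CCNA2, 1.60), topoisomerase TOP2A (0.93) and the transcription factors MYBL2 (1.62) and FOXM1 (1.35) rose as well. MKI67, the gene of the Ki-67 antigen, was at 107, 120.037 and 96.0 CPM in SUM44F but at 344 and 199.8 CPM in the 2 LTED-A samples, and with this spread it did not pass (log2 fold change 1.33, SE 0.21, adjusted p = 0.0015). Measured against SUM44PE in place of SUM44F, 35 of the 62 genes rose, with a median of 0.64.

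Among 49 genes for DNA replication, 37 rose and the other 12 did not pass (median 0.84). CDC45, which is part of the replicative helicase, went from 7.62, 7.20 and 6.51 CPM to 30.7 and 35.5 CPM (log2 fold change 2.22, SE 0.10, adjusted p = 2.9e-10). GINS3, a subunit of the same helicase, went from 13.2, 13.6 and 12.8 CPM to 36.7 and 45.1 CPM (1.64, SE 0.10, adjusted p = 3.8e-09). The helicase subunits MCM5 (1.66) and MCM2 (1.06) and the sliding clamp PCNA (0.89) rose too, and none of these genes overlapped between the groups. CDC45 and MCM5 lie on chromosome 22, and against SUM44PE MCM5 differed by 0.25 and CDC45 by 0.89. Of 26 genes for nucleotide synthesis, 15 rose, among them thymidylate synthase (TYMS, 1.45), thymidine kinase (TK1, 1.03) and the serine hydroxymethyltransferase SHMT2 (1.45). The p53-inducible subunit of ribonucleotide reductase, RRM2B, was the only member to fall (-0.63, adjusted p = 0.00015), a call that was lost with DESeq2 or without LTED-A replicate 1 or SUM44F replicate 3, and without LTED-A replicates 2 and 3 the number of members that rose was 8. Of 42 genes for DNA damage and repair, 19 rose and the other 23 did not pass. BRCA2 was at 40.9, 40.8 and 44.9 CPM and 259.5 and 277 CPM (2.67, SE 0.10, adjusted p = 1.9e-11), and CHEK2 (1.68) and BRCA1 (1.18) rose less.

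Upstream of these genes, cyclin D1 (CCND1), the partner of CDK4 and CDK6, was at 490.2, 503 and 419 CPM in SUM44F and 1626 and 1636 CPM in LTED-A (log2 fold change 1.79, SE 0.11, adjusted p = 6.3e-09). CDKN1A, which encodes the CDK inhibitor p21, was at 87.2, 85.6 and 67.4 CPM and 5.48 and 6.30 CPM (-3.75, SE 0.13, adjusted p = 1.2e-11). The cyclin was thus 3.46-fold higher and the inhibitor 13.5-fold lower, with no overlap between groups for either. The inhibitor CDKN2B (p15) fell by a log2 change of -1.74, while CDKN1B (p27) rose by 1.21. In the list of G1 cyclins, CDKs and inhibitors, 8 of 20 rose and 2 fell. Of 13 E2F and pocket protein genes, 4 rose and 2 fell. The activators E2F1 (1.08) and E2F2 (1.31) were among the rises, and the other rises are not named here. The falls were the repressor E2F5 (-1.16) and the pocket protein gene RBL2 (-0.74). Of an E2F signature of 24 genes that the study itself used on these samples, and which is therefore no independent evidence of a direction, 11 rose and the other 13 did not pass, H2AZ1 the most (1.38).

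Promoters of these genes were read from RefSeq on GRCh38.p14, from 250 bases before to 50 after the start of each gene. The E2F element, searched as TTTCCCGC or TTTGGCGC on both strands, stood in 15 of 42 promoters of replication genes (35.7%), against 2.31% of all 27305 promoters in the table and 3.41% of those of 12387 protein-coding genes tested. The CHR element of late cell cycle genes, searched as TTTGAA on both strands, stood in 38 of 55 promoters of mitosis genes (69.1%), against 15.4% of all promoters and 10.5% of those of protein-coding genes tested. CCAAT, the letters bound by NF-Y, was found in 38 of the 55 mitosis promoters (69.1%) and in 35.7% of all. Among protein-coding genes as a whole, the E2F element stood in 6.06% of promoters of genes that rose and in 2.22% of those of genes that fell, and the CHR element in 14.5% and 12.75%. A match is a description of these letters and no proof of a site in use. To show what these elements look like in genes that rose, 1 promoter is printed for each list, that of the gene with the lowest adjusted p whose promoter holds the element. The capitals mark the element, which reads as the other strand of the letters searched. The element begins 5 bases before the start of GINS3 at chr16:58392221-58392520 (plus strand) and 3 bases before the start of SKA3 at chr13:21176503-21176802 (minus strand).
GINS3: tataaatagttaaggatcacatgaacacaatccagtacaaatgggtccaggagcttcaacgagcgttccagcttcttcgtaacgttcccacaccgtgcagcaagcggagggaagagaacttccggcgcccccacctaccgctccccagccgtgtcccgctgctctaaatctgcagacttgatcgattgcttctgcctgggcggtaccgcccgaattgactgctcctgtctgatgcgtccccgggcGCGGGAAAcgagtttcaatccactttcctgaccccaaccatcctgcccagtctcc
SKA3: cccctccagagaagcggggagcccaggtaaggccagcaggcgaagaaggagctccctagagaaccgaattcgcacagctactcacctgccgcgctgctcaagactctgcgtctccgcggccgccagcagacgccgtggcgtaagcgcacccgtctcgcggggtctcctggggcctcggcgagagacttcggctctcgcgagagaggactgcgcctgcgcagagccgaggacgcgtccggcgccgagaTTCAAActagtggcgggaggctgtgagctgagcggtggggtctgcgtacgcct

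The estrogen receptor gene and a part of its known targets were higher in LTED-A. ESR1, the gene of ERα, was at 576, 599.9 and 540.4 CPM in SUM44F and 1379 and 1429.6 CPM in LTED-A (log2 fold change 1.30, SE 0.10, adjusted p = 9.9e-08). Of 38 estrogen-induced genes, 16 rose, 7 fell and 15 did not pass (median 0.38). TFF1, a secreted trefoil peptide and the classical ER target, was at 16.2, 16.4 and 12.8 CPM and 308 and 368 CPM (4.49, SE 0.13, adjusted p = 2.8e-12). STC2, the glycoprotein hormone stanniocalcin 2, was at 77.2, 77.4 and 66.7 CPM and 523 and 561 CPM (2.88, SE 0.10, adjusted p = 1.0e-11). The trefoil peptide TFF3 (1.95), the disulfide isomerase AGR2 (2.004) and the carbonic anhydrase CA12 (1.55) rose as well, each with both LTED-A samples above all SUM44F libraries. In contrast, IRS1, the docking protein of the insulin and IGF1 receptors, was at 48.4, 45.5 and 41.0 CPM and 4.86 and 4.08 CPM (-3.34, SE 0.12, adjusted p = 1.9e-11). RAB31, a small GTPase of vesicle traffic, was at 18.0, 15.1 and 14.2 CPM and 1.36 and 1.45 CPM (-3.48, SE 0.15, adjusted p = 1.2e-10). The protease cathepsin D (CTSD) fell by a log2 change of -0.90, and GREB1, a cofactor of ERα and one of its strongest targets, stood at 47.9, 46.3 and 40.9 CPM and 46.4 and 42.5 CPM (-0.02, adjusted p = 0.90).

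The progesterone receptor gene PGR was at 9.58, 1.33 and 1.53 CPM in SUM44F and at 0.223 and 0.106 CPM in LTED-A. It did not pass over all samples (log2 fold change -4.80, SE 1.44, adjusted p = 0.053), and it fell without SUM44F replicate 1 (-3.29). Which parental culture was used mattered for the list of estrogen-induced genes: against SUM44PE, 12 rose and 10 fell, with a median of -0.22, and TFF1 was higher by 2.04, STC2 by 0.58, TFF3 by 1.00 and ESR1 by 0.74 on the log2 scale. The palindromic estrogen response element, searched on both strands, was found in the promoter windows of 18 of 27305 genes (0.0659%), and the 28 promoters at hand of estrogen-induced genes are not among them. ER is known to bind mostly at distant sites, which these windows do not cover.

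Of 25 genes for steroid and other nuclear receptors tested, 3 rose and 2 fell. Beside ESR1, these were PPARD, a receptor for fatty acids (1.19), and NR4A1 (0.98) among the rises, and NR4A2 (-1.09) and the membrane estrogen receptor GPER1 (-1.78) among the falls. In this list 1 receptor rose without LTED-A replicate 1. GPER1 lost its call without SUM44F replicate 1 or 2, LTED-A replicates 2 and 3, or any LTED-B replicate. THRB, the gene of thyroid hormone receptor beta, was not in that list and was among the largest rises, from 3.09, 2.93 and 3.06 CPM to 65.0 and 66.5 CPM (4.44, SE 0.09, adjusted p = 5.6e-14). Of 36 genes for steroid-metabolizing enzymes, 5 rose and 9 fell, and 3 rose without LTED-A replicate 1, LTED-A replicates 2 and 3 or SUM44F replicate 3. Steroid sulfatase (STS), which frees estrone from its sulfate, was at 107, 114 and 94.7 CPM and 296 and 306 CPM (1.52, SE 0.09, adjusted p = 5.7e-09). SULT1E1, the sulfotransferase that inactivates estrogens, was at 4.36, 3.67 and 4.25 CPM and 0.0496 and 0.0968 CPM (-5.61, SE 0.31, adjusted p = 1.9e-09). The P450 enzyme CYP1A1, which hydroxylates estrogens, rose from a low level (2.76, SE 0.50), to 0.521 and 0.633 CPM in the 2 LTED-A samples.

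The transcription factors that hold luminal identity divided. Of 19 tested, 5 rose and 5 fell. GATA3 was at 202, 237 and 199.8 CPM and 548 and 350.2 CPM (1.08, SE 0.16, adjusted p = 0.00017), and the pioneer factor of ER binding, FOXA1, was at 434, 447 and 383 CPM and 649 and 689 CPM (0.67, SE 0.10, adjusted p = 0.00011). SPDEF (0.91), TBX3 (0.88) and TRPS1 (0.70) rose by similar amounts. The epithelial factors GRHL1 (-1.90), KLF5 (-1.51) and ELF3 (-0.68) fell. GRHL1 was at 24.8, 25.5 and 22.976 CPM in SUM44F and at 6.23 and 6.83 CPM in LTED-A. Without LTED-A replicate 1, 5 members rose and 2 fell.

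The 15 protein-coding genes with the largest falls included several that could not be detected in LTED-A. For these, the fold is given as a lower bound, computed against 3 counts per sample. CCDC178 (chr18:32937402-33441101), a gene for a coiled-coil protein, had no count in any LTED-A library. CPA6, a carboxypeptidase gene, was at 22.7, 21.1 and 21.8 CPM and 0.0248 and 0.0176 CPM, at least 293-fold lower. The neural cell adhesion genes CHL1 and CNTN6 were at least 137-fold and 34.4-fold lower. The bile salt exporter ABCB11 was at least 30.6-fold lower, PLCL2, a phospholipase C-like protein, at least 56.1-fold, and the kinase gene PSKH2 at least 18.0-fold. Genes with about 1 CPM in SUM44F gave smaller bounds: IL22RA2, the soluble decoy receptor of interleukin 22 (at least 14.9-fold lower), the keratin KRT20 (at least 14.9-fold), the kallikrein protease KLK5 (at least 14.9-fold) and the acute phase protein gene ORM1 (at least 13.5-fold), whose fragments may be shared with its close copy ORM2. LAMA2, the laminin alpha 2 chain, was at 10.5, 4.08 and 3.92 CPM in SUM44F, highest in replicate 1, and LTED-A was at least 82.9-fold below. It also fell without that replicate. Among genes still detected, NTRK2 (chr9:84668375-85095751), which encodes the neurotrophin receptor TrkB, was at 27.2, 30.3 and 33.6 CPM and 0.0248 and 0.0352 CPM (-9.79, SE 0.23, adjusted p = 2.9e-13). PDE4B, a phosphodiesterase that degrades cAMP, was at 79.7, 79.6 and 79.8 CPM and 0.0496 and 0.176 CPM (-9.13, SE 0.20, adjusted p = 2.0e-13). For both genes the SUM44F libraries lay close together, with both LTED-A samples below 1 CPM.

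PIP (chr7:143132077-143139739), prolactin-induced protein, was at 199.5, 199.8 and 199 CPM in SUM44F and 0.645 and 0.809 CPM in LTED-A (-8.04, SE 0.13, adjusted p = 1.6e-14). SCGB2A2, mammaglobin A, was at 205, 209 and 186 CPM and 2.01 and 2.93 CPM (-6.28, SE 0.15, adjusted p = 2.9e-13). For both secretory genes every LTED-A sample lay far below every SUM44F library. CLEC3B, the plasminogen-binding protein tetranectin, was 118-fold lower (-6.88), and CHI3L2, a chitinase-like protein, 56.7-fold lower (-5.83). DMP1, a phosphoprotein of dentin and bone matrix, fell from 90.5, 92.6 and 89.0 CPM to 0.695 and 0.422 CPM (-7.47), SLC5A8, a sodium-coupled carrier of monocarboxylates, from 55.5, 58.5 and 58.1 CPM to 0.298 and 0.211 CPM (-7.90), and PTPRO, a receptor-type tyrosine phosphatase, from 85.0, 84.8 and 81.3 CPM to 0.372 and 0.563 CPM (-7.38). All of them kept their calls without SUM44F replicate 1. Against SUM44PE, PTPRO was lower by a log2 difference of -2.56 and PIP by -7.55.

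SLCO2B1 (chr11:75100563-75206549), an organic anion transporter that carries steroid sulfates, was at 2.31, 0.722 and 0.582 CPM in SUM44F and 77.2 and 73.6 CPM in LTED-A (6.06, SE 0.55, adjusted p = 0.0005). STEAP1, a membrane protein of a metalloreductase family, was at 0.392, 0.390 and 0.470 CPM and 24.1 and 30.9 CPM (6.01, SE 0.15, adjusted p = 5.7e-13). CTTNBP2, which binds cortactin, was at 1.31, 0.293 and 0.414 CPM and 38.2 and 34.2 CPM (5.84, SE 0.52, adjusted p = 0.00042). For SLCO2B1 and CTTNBP2, SUM44F replicate 1 was the highest parental library, and without it the log2 fold changes were 6.87 and 6.62. ABTB3 (log2 fold change 4.91), the F-box protein gene FBXL7 (5.06), the type 1 BMP receptor BMPR1B (4.997), the gut hormone peptide YY (PYY, 4.67), the WNT receptor FZD10 (4.41), the very long chain fatty acid elongase ELOVL4 (4.32), FOLH1, the gene of prostate-specific membrane antigen (4.32), and ROBO1, the receptor of SLIT guidance cues (4.20), rose, as did TFF1 and THRB. TMEM117 and the trypsinogen gene PRSS1 were below detection in SUM44F and at least 16.1-fold and 16.4-fold higher in LTED-A, where both had about 1 CPM. PRSS1 has near-identical copies in its locus, so its fragments could be divided among them and its value is uncertain. Among abundant genes, ROBO1 was at 3.75, 2.89 and 3.15 CPM and 63.8 and 56.0 CPM, SPAG6, a protein of the ciliary central pair, at 5.01, 5.31 and 5.86 CPM and 59.5 and 65.2 CPM (3.53), and CPB1, carboxypeptidase B1, at 8.04, 7.01 and 6.72 CPM and 60.4 and 73.7 CPM (3.21).

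**Figure D3:**
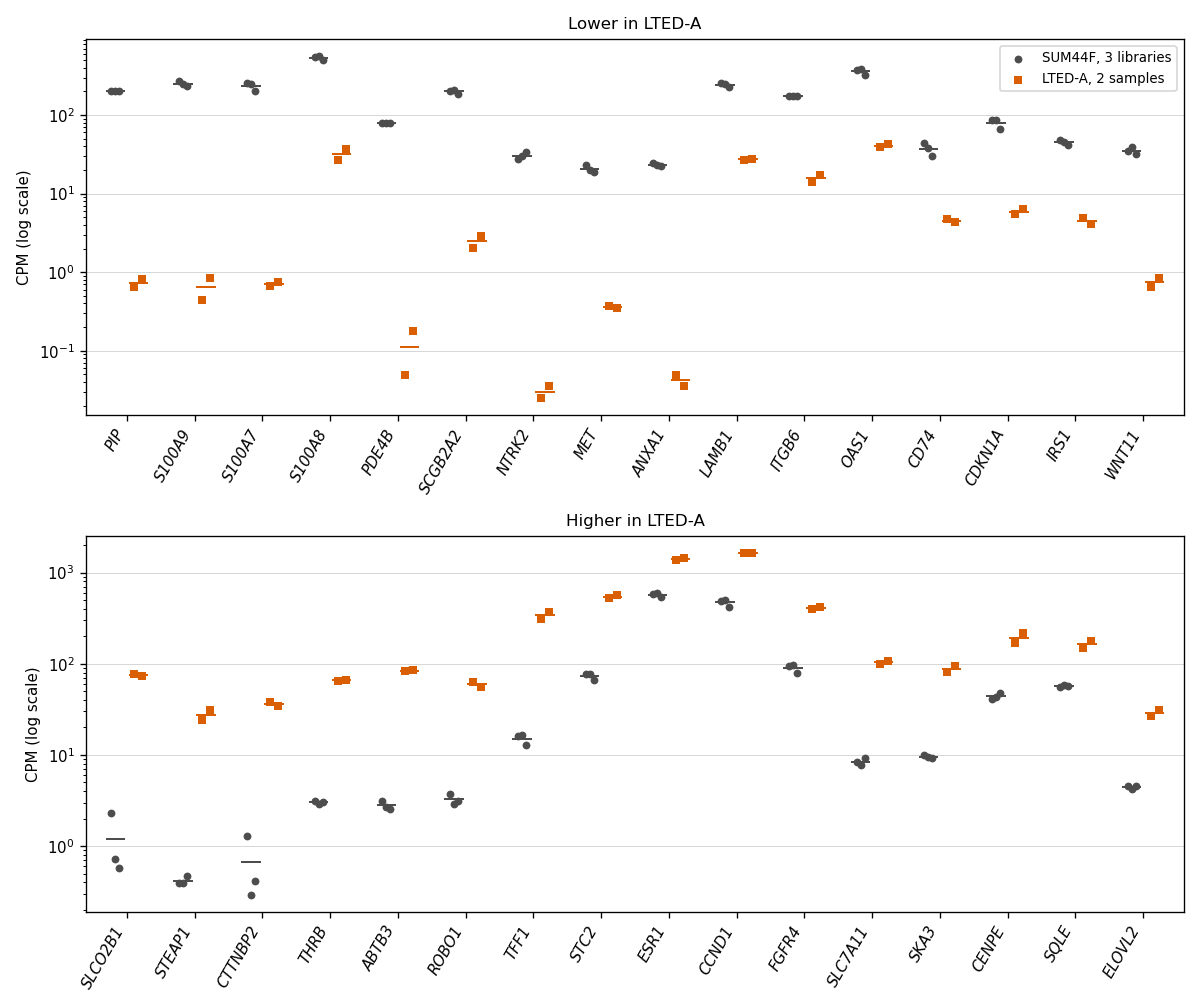
Normalized CPM on a log scale of 16 genes that were lower (top) and 16 that were higher in LTED-A (bottom), with circles for the 3 SUM44F libraries, squares for the 2 LTED-A samples and short lines for the group means. The groups do not overlap for any of these genes, and PIP, at 199.4 to 199.8 CPM in SUM44F, is below 1 CPM in both LTED-A samples.

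Among long noncoding RNA genes, the largest falls were those of LNCAROD, without a count in both LTED-A samples and at least 97.2-fold lower, LINC03004 (-8.02) and NRAD1 (-6.46). LNCAROD was at 7.12, 7.61 and 6.98 CPM in SUM44F and NRAD1 at 10.3, 9.70 and 9.46 CPM. The largest rises were those of ELOVL2-AS1 (3.62), FZD10-AS1 (3.41) and the noncoding entry named SPATA13 (2.73), which shares its name with a protein-coding gene at 1.76. FZD10-AS1 was at 1.26, 0.722 and 0.918 CPM and 11.2 and 9.29 CPM. The protein-coding partners FZD10 and ELOVL2 rose too, and since the strand setting of the counting is not given, reads of a gene and its antisense partner may not be fully separated.

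Lipid genes changed member by member. Of 21 genes for cholesterol synthesis, a list the study used on these samples, 8 rose and 2 fell (median 0.45), which is no independent evidence of a direction, and without LTED-A replicates 2 and 3 the number that rose was 5. Without LTED-A replicate 1, LTED-A replicates 2 and 3, SUM44F replicate 2 or LTED-B replicate 1, 1 fell. SQLE, squalene epoxidase, was at 55.0, 57.7 and 56.4 CPM and 148 and 178 CPM (1.53, SE 0.09, adjusted p = 3.2e-09), and DHCR7, which makes cholesterol from its last precursor, at 91.3, 93.3 and 71.9 CPM and 213 and 224 CPM (1.35, SE 0.11, adjusted p = 1.1e-07). MSMO1 rose by 1.17, while the sterol reductase TM7SF2 fell (-0.82). CCAAT stood in 12 of 17 promoters of this list (70.6%). The classical sterol regulatory element (a 10-letter word, both strands) stood in 0 of these 17 and in 13 of all 27305 promoters of the table (0.0476%). With an exact word this rare, nearly any list of this size would hold 0, so the count says nothing about these genes. Of 26 genes for SREBP regulation and sterol handling, 5 rose and 5 fell, the latter number being 3 without LTED-A replicate 1 or SUM44F replicate 2. The transcription factors SREBF2 (1.59) and SREBF1 (0.88), which turn on sterol and fatty acid genes, rose. SREBF2, on chromosome 22, was at 75.6, 81.5 and 61.8 CPM and 259 and 179.5 CPM. APOD, a carrier of small lipids, fell from 514, 552 and 363 CPM to 151 and 129 CPM (-1.77). CYP7B1, which hydroxylates oxysterols, was below 1 CPM in SUM44F and undetected in LTED-A, at least 10.3-fold lower. The cholesterol exporter ABCA1 was at 10.979, 3.12 and 2.86 CPM in SUM44F and 0.323 and 0.440 CPM in LTED-A, did not pass over all samples (adjusted p = 0.014) and fell without SUM44F replicate 1 (-2.91).

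Of 32 genes for fatty acid synthesis and storage, 8 rose and 7 fell (median 0.02). Without LTED-A replicate 1, 8 rose and 3 fell. Among the rises were ATP citrate lyase (ACLY, 0.78), fatty acid synthase (FASN, 0.85), the desaturase SCD (1.18) and the elongases ELOVL6 (1.66) and ELOVL2 (2.69). FASN was at 389, 416 and 336 CPM and 775 and 594 CPM, and ELOVL2 at 4.57, 4.27 and 4.58 CPM and 27.0 and 31.0 CPM. In contrast, THRSP (Spot 14), a nuclear regulator of lipogenic genes, fell from 51.5, 50.7 and 39.8 CPM to 1.32 and 0.844 CPM (-5.53, SE 0.22, adjusted p = 2.6e-09). ACSL5, an acyl-CoA synthetase, fell from 17.1, 7.77 and 7.77 CPM to 0.199 and 0.194 CPM (-5.78, SE 0.51, adjusted p = 7.3e-05). Of 32 genes for fatty acid oxidation and ketone metabolism, 2 rose and 7 fell, among the latter the dehydrogenase ACADS (-1.70) and HADHB, a subunit of the trifunctional protein (-1.03). OXCT1, which uses ketone bodies, rose from 12.5, 13.1 and 13.033 CPM to 61.9 and 78.4 CPM (2.45, SE 0.10, adjusted p = 7.7e-11), and against SUM44PE it differed by 0.50.

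Genes of the unfolded protein and integrated stress responses were higher in number than lower, with 18 of 36 that rose and 4 that fell (median 0.63). ATF4, the transcription factor of the integrated stress response, was at 216, 216 and 183 CPM and 480.2 and 558 CPM (1.34, SE 0.11, adjusted p = 9.7e-08). Members for amino acid supply were among those that rose. SLC7A11, the cystine importer, went from 8.45, 7.67 and 9.15 CPM to 100.041 and 108 CPM (3.62, SE 0.09, adjusted p = 6.3e-13). SLC7A1, the importer of cationic amino acids, went from 28.2, 30.8 and 25.9 CPM to 415 and 287 CPM (3.63, SE 0.14, adjusted p = 6.1e-10). The leucine importer SLC7A5 (1.69), asparagine synthetase (ASNS, 1.76), PHGDH, the first enzyme of serine synthesis (1.85), the glutathione-degrading enzyme CHAC1 (1.65) and the pseudokinase TRIB3 (1.33) rose as well. XBP1, the transcription factor spliced on endoplasmic reticulum stress, went from 311, 304 and 302 CPM to 1100.0 and 1359.8 CPM (2.01, SE 0.11, adjusted p = 1.3e-09). The co-chaperone DNAJC3 (-1.30) and PPP1R15A, a subunit of the phosphatase that ends the stress response (-1.07), fell. SLC7A1 and DNAJC3 are on chromosome 13, and XBP1 and ATF4 on chromosome 22. In the list for glycolysis and hypoxia, 6 of 37 rose and 5 fell, with the glucose transporters SLC2A10 (1.15) and SLC2A3 (-2.31) as the largest changes in each direction. Of this list 3 fell without LTED-A replicate 1.

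Of 38 interferon-stimulated genes tested, 16 fell and the other 22 did not pass (median -1.0003). OAS1, a sensor of double-stranded RNA, was at 371, 385 and 323 CPM and 38.6 and 42.7 CPM (-3.14, SE 0.11, adjusted p = 1.2e-11). GBP2, an interferon-induced GTPase, was at 54.6, 50.6 and 49.0 CPM and 4.94 and 6.72 CPM (-3.12, SE 0.13, adjusted p = 7.5e-11). IFI6 (-3.49) fell, IFI44, undetected in LTED-A, was lower by at least 15.5-fold, and IRF9, the DNA-binding subunit of the factor that turns these genes on, fell by a log2 change of -1.54. Without SUM44F replicate 1, 17 of 38 fell, with a median of -0.82, and against SUM44PE the median was -0.61.

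Of 20 genes for MHC class I and peptide loading, 6 fell and the other 14 did not pass. B2M, the invariant light chain, was at 361, 332 and 349 CPM and 156 and 207 CPM (-0.93, SE 0.11, adjusted p = 9.6e-06), and the trimming peptidase ERAP2 fell more (-1.56). Without LTED-A replicate 1, the number of class I genes that fell was 3. Of 15 genes for MHC class II, 3 fell: CD74, the invariant chain, was at 44.1, 37.996 and 29.9 CPM and 4.69 and 4.36 CPM (-3.05, SE 0.15, adjusted p = 1.1e-09), HLA-DMA, which edits the bound peptide, was at 12.2, 10.2 and 9.50 CPM and 3.97 and 3.44 CPM (-1.52), and CIITA, the master regulator of these genes, fell by a log2 change of -0.79. HLA-DRA, a chain of the HLA-DR receptor, was at 5.38, 2.73 and 2.66 CPM and 1.79 and 1.81 CPM, highest in SUM44F replicate 1, and did not pass (adjusted p = 0.02). Immune cell markers were also highest in that library, and their part in the levels of the class II genes was not tested. Reads of HLA genes can be shared among close copies.

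Of 31 receptor tyrosine kinases, which bind growth factors, 3 rose and 6 fell. Without LTED-A replicate 1, SUM44F replicate 3 or LTED-B replicate 3, 1 rose. MET, the receptor of hepatocyte growth factor, was at 22.981, 19.8 and 19.1 CPM and 0.372 and 0.352 CPM (-5.84, SE 0.19, adjusted p = 6.7e-12). INSRR, an insulin receptor-like kinase, was at least 95.3-fold lower, and NTRK2 also belongs to this group. FGFR4 was the largest rise, from 94.8, 97.1 and 78.8 CPM to 398 and 414 CPM (2.17, SE 0.10, adjusted p = 2.8e-10). FGFR1 was at 452, 473 and 407 CPM and 384 and 375 CPM and did not pass (-0.23, adjusted p = 0.094). Of 20 growth factor ligands, 4 rose, GDF15 the most (4.12) and PDGFB too (2.03), and 3 fell, with HBEGF, a ligand of EGFR, at -3.26. Against SUM44PE, GDF15 differed by 0.47. Of 14 genes for IGF binding proteins and substrates, 3 fell, IRS1 the most, and 2 rose, IRS4 the most, from 0.414, 0.293 and 0.235 CPM to 2.21 and 1.69 CPM (2.65). IRS4 differed by -0.06 from SUM44PE. In this list 1 gene rose without LTED-A replicate 1, SUM44F replicate 2 or any LTED-B replicate.

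Downstream of these receptors, MAPK feedback genes divided, with 3 of 21 higher and 6 lower. The ERK phosphatase DUSP6 was at 58.6, 59.9 and 53.3 CPM and 13.9 and 14.9 CPM (-1.99, SE 0.09, adjusted p = 3.2e-10), and PHLDA1 at 71.1, 74.6 and 78.7 CPM and 7.92 and 7.57 CPM (-3.27, SE 0.10, adjusted p = 3.3e-12). The phosphatase DUSP4 was higher instead (1.63), although against SUM44PE it differed by only 0.47. Among 19 genes for AP-1 and immediate early factors, 5 fell, EGR1 (-2.73), FOS (-2.05) and JUN (-1.12) among them, and 3 rose, KLF2 the most (2.06). Of 31 genes for PI3K, AKT and mTOR, 6 fell and 3 rose. PIK3R1, the regulatory subunit of PI3K, was at 225, 237 and 213 CPM and 62.2 and 61.2 CPM (-1.87, SE 0.09, adjusted p = 4.1e-10). EIF4EBP1, the translation repressor that mTORC1 phosphorylates, was at 208, 217 and 176 CPM and 725 and 764 CPM (1.89, SE 0.11, adjusted p = 2.9e-09). In the BCL2 family, 3 of 18 rose, PMAIP1 (NOXA) the most (1.01), and 2 fell, BOK the most (-2.10), a number that was 4 without LTED-A replicates 2 and 3.

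In the developmental pathways, ligands and receptors moved in both directions. Of 38 WNT genes tested, 5 rose and 9 fell. The ligand WNT11 was at 34.4, 39.2 and 32.0 CPM and 0.645 and 0.836 CPM (-5.52, SE 0.18, adjusted p = 4.7e-12) and WNT6 at 7.80, 7.59 and 8.15 CPM and 0.0496 and 0.0528 CPM (-7.19, SE 0.24, adjusted p = 8.0e-12). Of the receptors, FZD7 fell (-2.26) and FZD10 rose. Of 35 genes for BMP and TGF-beta signalling, 7 rose and 6 fell. The receptor BMPR1B went from 0.370, 0.468 and 0.717 CPM to 16.6 and 18.5 CPM (4.997, SE 0.16, adjusted p = 2.9e-11), and the inhibin chain INHBB rose (1.52). The ligands BMP5 (-4.16) and TGFB2 (-4.93) and the receptor TGFBR2 (-4.95) fell. Of 25 Notch genes, 5 rose, among them the target genes HEY2 (3.49) and HES1 (1.81), and 3 fell, among them the ligand JAG1 (-2.89) and the coactivator MAML2, at least 38.2-fold lower. HES1 was at 9.45, 8.80 and 8.16 CPM and 27.6 and 34.1 CPM while JAG1 was at 19.3, 17.1 and 15.3 CPM and 2.11 and 2.50 CPM.

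Of 43 collagens, laminins and integrins, 14 fell and 3 rose (median -1.13). Without SUM44F replicate 1, 18 fell and 4 rose, with a median of -0.67, and without SUM44F replicate 3, 1 rose. Unlike LAMA2, the laminin chain LAMB1 was at like levels in the 3 SUM44F libraries, 253, 251 and 225 CPM, and at 27.0 and 27.6 CPM in LTED-A (-3.15, SE 0.10, adjusted p = 3.4e-12). LAMB3, another laminin beta chain, fell too (-2.65), as did ITGB6, the epithelial integrin beta 6 chain, from 173, 174 and 177 CPM to 14.2 and 17.2 CPM (-3.47). The fibronectin receptor chain ITGA5 (1.75) and the collagen COL12A1 (0.64) rose, while fibronectin itself, FN1, fell (-1.62). Among 20 mesenchymal genes and EMT regulators, 2 rose, TCF4 the most (1.14), and 3 fell, and without LTED-A replicate 1, 1 rose. VIM, the intermediate filament of mesenchymal cells, was at 31.3, 7.61 and 7.58 CPM and 0.521 and 0.325 CPM, and it did not pass over all samples (adjusted p = 0.014) but fell without SUM44F replicate 1 (-4.25). Of 33 cadherins and catenins, 2 rose and 2 fell, both below the shares of protein-coding genes (10.8% and 11.8%). The larger rise was that of CTNND2, a delta-catenin (1.03), and the larger fall that of the desmosomal cadherin DSG2 (-1.55).

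Of 16 keratins, 7 fell and the other 9 did not pass. KRT7, a keratin of simple epithelia, was at 329.9, 341 and 246 CPM and 119.994 and 122 CPM (-1.34, SE 0.13, adjusted p = 8.4e-07). The basal keratin KRT17 was below 1 CPM in SUM44F, where LTED-A was at least 9.05-fold below, and the basal factor TP63 fell from 3.29, 2.71 and 2.72 CPM to 0.124 and 0.132 CPM (-4.47). With at least 10 counts required in every sample, or without either LTED-A sample, the number of keratins that fell was 3. Of 24 annexins and S100 proteins, 12 fell and 2 rose. S100A9, which with S100A8 forms calprotectin, was at 275, 247 and 234 CPM and 0.447 and 0.836 CPM (-8.47, SE 0.19, adjusted p = 2.4e-13). S100A8 was at 549.8, 556 and 503 CPM and 26.6 and 36.8 CPM (-4.08, SE 0.14, adjusted p = 1.1e-11). The partner genes thus fell to different extents, 354-fold and 16.9-fold. S100A7, psoriasin, was at 258, 248 and 204 CPM and 0.670 and 0.739 CPM (-8.36, SE 0.16, adjusted p = 5.6e-14), with close copies in its cluster that could share fragments. ANXA1 was at 24.8, 22.9 and 22.6 CPM and 0.0496 and 0.0352 CPM (-9.15, SE 0.27, adjusted p = 2.1e-12), and ANXA2 fell less (-1.08). S100P rose, from 2.51, 2.07 and 2.004 CPM to 21.6 and 25.8 CPM (3.44). The endothelial adhesion gene PECAM1 was at 27.4, 26.8 and 21.8 CPM in SUM44F, with no excess in replicate 1, and at 2.18 and 1.78 CPM in LTED-A (-3.70, SE 0.17, adjusted p = 3.5e-10).

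The 13 protein-coding genes of mitochondrial DNA had a median log2 fold change of 0.85, but the LTED-A samples were far apart. MT-ND4, a subunit of complex I, was at 281, 319.8 and 147 CPM in SUM44F and at 1258 and 395 CPM in LTED-A. The median of the 13 genes was 1.29 with the LTED-A sample at 1258 CPM of MT-ND4 alone, and 0.39 with the other LTED-A sample alone. By edgeR, and likewise by DESeq2, 0 of the 13 genes were DE. By edgeR, 6 had an unadjusted p under 0.05, all higher in LTED-A. The share of all genes at this unadjusted limit is not given, so the count of 6 shows no shift of the list.

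Position on the chromosomes was examined in windows of 40 neighbouring genes with at least 5 CPM, moved by 20 genes, and neighbouring windows whose median log2 fold change lay beyond 0.5 were joined into stretches. There were 8, and the median over all genes of at least 5 CPM was 0.10. The largest shift lay nearest the centromere of chromosome 13, in GRCh38 coordinates chr13:18413127-37059713, where 54 of 60 genes rose, 1 fell and the median was 1.60. It included HMGB1, a chromatin protein, at 317, 318 and 319.8 CPM and 868 and 1192 CPM (1.70), ATP8A2, a phospholipid flippase, at 150.0, 148 and 138 CPM and 989 and 988 CPM (2.77), and the ribosomal protein gene RPL21 (1.92), which has many near-identical copies. SKA3, BRCA2, SLC7A1 and the noncoding SPATA13 entry also lie on chromosome 13 within it. Further along the same chromosome, at chr13:48975912-113323672, 59 of 80 genes fell, 1 rose and the median was -0.93. The 3 most abundant genes there were the membrane protein gene TM9SF2 (-0.83), the unconventional myosin MYO16, at 182, 190.2 and 173 CPM and 19.0 and 17.8 CPM (-3.31), and LAMP1, a lysosomal membrane protein (-0.74), and DNAJC3 and KLF5 lie in it as well. MYO16 is also the 1 gene there that was higher in LTED-A than in LTED-B. In LTED-B the medians of the genes of these 2 stretches were 0.18 and 0.00 against the same parental libraries, and 51 of the 60 genes were higher and 66 of the 80 lower in LTED-A than in LTED-B. Against SUM44PE the LTED-A medians were 1.85 and -0.78.

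**Figure D4:**
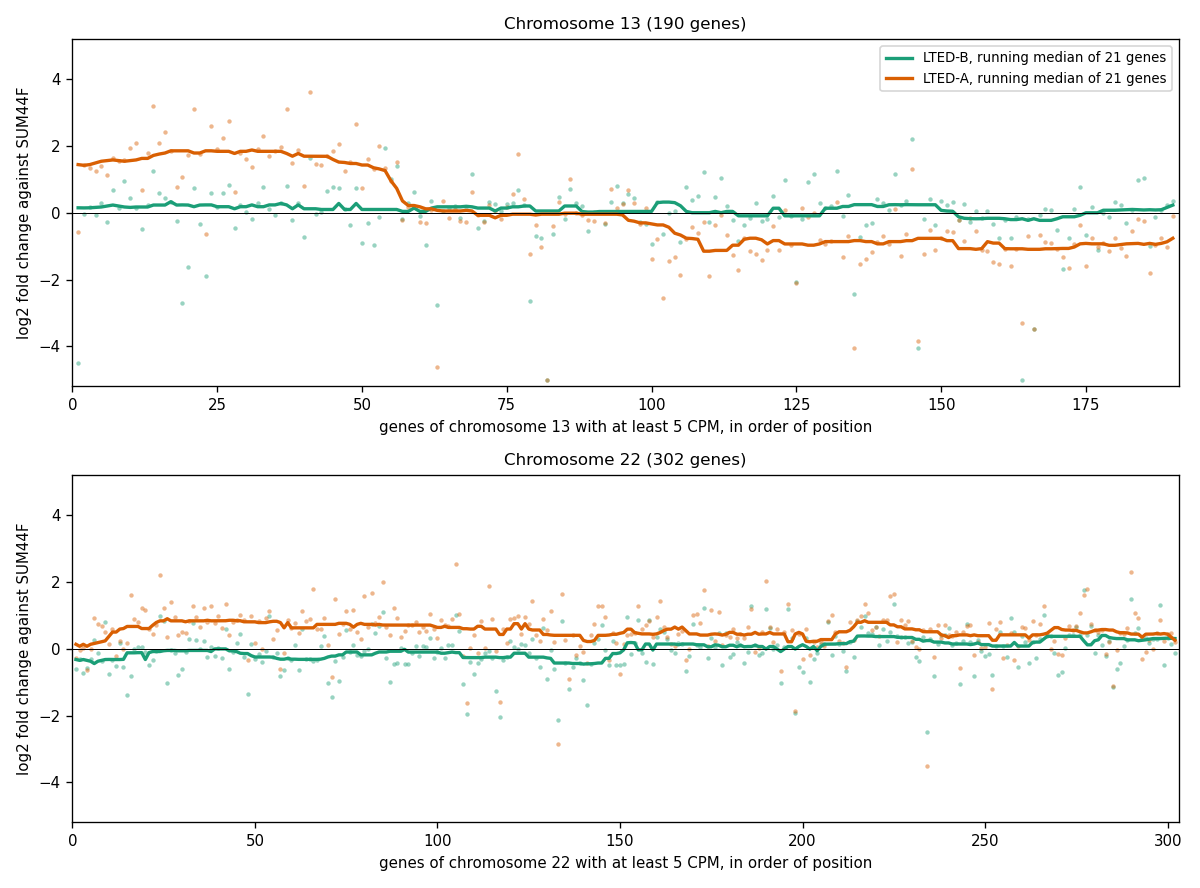
Log2 fold change against SUM44F (vertical axis, values beyond 5 drawn at 5) of genes with at least 5 CPM on chromosomes 13 (190 genes) and 22 (302 genes), in order of position, for LTED-A (orange) and LTED-B (green). Lines are running medians of 21 genes. On chromosome 13 the LTED-A line is near 1.60 at the left and near -0.93 at the right, while the LTED-B line stays near 0.

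On chromosome 22, in chr22:15282557-31530634, 73 of 120 genes rose and 3 fell (median 0.69), and 80 of them were higher in LTED-A than in LTED-B, where the median was -0.21. The most abundant were XBP1, EWSR1, an RNA-binding protein gene that did not pass (0.36, adjusted p = 0.013), and the cytokine MIF (1.12). CDC45 and CHEK2 lie there too. This stretch depended on the parental culture: against SUM44PE its median was 0.10 and it was not found. A second stretch on chromosome 22, at chr22:40346461-42858106, had a median of 0.56 over 40 genes, 18 of which rose, SREBF2 among them, and 0.22 against SUM44PE, where it was not found either. Its most abundant genes, XRCC6 (0.56), ST13 (0.21) and ZC3H7B (0.16), did not pass. The other stretches had medians between 0.48 and 0.58. Those on chromosome 16 at chr16:1419752-2980479 (19 of 60 genes rose, RPS2 with 0.78; JPT2 and SRRM2 did not pass, the latter at 391 and 149 CPM in the LTED-A samples), chromosome 19 at chr19:12791486-15449956 (8 of 40 rose; CALR and PRDX2 did not pass) and chromosome 20 at chr20:59933764-63864293 (16 of 40 rose, EEF1A2 with 1.75; PSMA7 and RPS21 did not pass, RPS21 with an adjusted p of 0.0016) had medians of 0.31, 0.34 and 0.36 in LTED-B, and the first 2 of these were not found against SUM44PE. The stretch at chr6:17393595-27893106 holds the large histone cluster: 16 of 80 genes rose, 5 fell, among them the developmental transcription factor SOX4, from 541, 550.5 and 521 CPM to 144 and 152 CPM (-1.86), and the median was 0.58, beside 0.89 in LTED-B. The linker histone genes H1-2 (0.58, adjusted p = 0.0024) and H1-4 (0.67, adjusted p = 0.0037) did not pass, and both passed without SUM44F replicate 1.

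LTED-A was also set directly against LTED-B, the other derivation. The SUM44F libraries do not enter that difference, although they share in the estimate of the spread. Of 26834 genes, 9.04% differed: 1156 (4.31%) were higher and 1269 (4.73%) lower in LTED-A than in LTED-B, and without LTED-A replicate 1 the latter number was 625. Since both variants are measured against the same parental libraries, their fold changes share that error and are given only side by side. LTED-B had 2467 genes (9.19%) above and 2570 (9.58%) below SUM44F. The same LTED-A samples enter both comparisons, so a gene called in LTED-A is favoured in advance to differ from LTED-B in the same direction. The counts that follow therefore do not show that LTED-A changed further than LTED-B. Of the genes DE in LTED-A against SUM44F, 1260 also differed between the variants. Among those that rose, 472 were higher and 62 lower than in LTED-B, and among those that fell, 579 were lower and 147 higher.

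The largest differences among these were in genes of varied function. S100A9 was at 0.447 and 0.836 CPM in LTED-A, and LTED-B had a mean of 73.8 CPM (2.92 SD, n = 3), a log2 difference of -6.70 (SE 0.18, adjusted p = 3.2e-12), with SUM44F above both. SYT1, the synaptic calcium sensor synaptotagmin 1, was at 181, 192 and 186 CPM in SUM44F, 76.6 and 80.6 CPM in LTED-A, and LTED-B had a mean of 0.677 CPM (6.82), so that it fell in both variants and further in LTED-B. CPB1 and the neuropeptide Y receptor gene NPY5R rose in LTED-A and were lower in LTED-B than in SUM44F. NPY5R was at 7.45, 7.94 and 7.95 CPM in SUM44F, 49.2 and 62.3 CPM in LTED-A, and LTED-B had a mean of 1.74 CPM (4.99). The histone gene H3C11 (5.98) and the ubiquitin-like UBD (5.09), which lies close to another gene, were also higher in LTED-A than in LTED-B, although UBD fell in both. MYBPC1, a myosin-binding protein, was at 0.0653, 0.215 and 0.235 CPM in SUM44F and 0.620 and 0.765 CPM in LTED-A, and LTED-B had a mean of 37.980 CPM (-5.73). TRIM55, a muscle ubiquitin ligase (-5.34), and PLPPR3, a phosphatase-related membrane protein (-5.14), fell in LTED-A and stood above SUM44F in LTED-B, and PDZK1IP1 (-5.03) fell in LTED-A and was at 6.15 CPM in LTED-B against 6.12, 6.71 and 5.18 CPM in SUM44F.

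**Figure D5:**
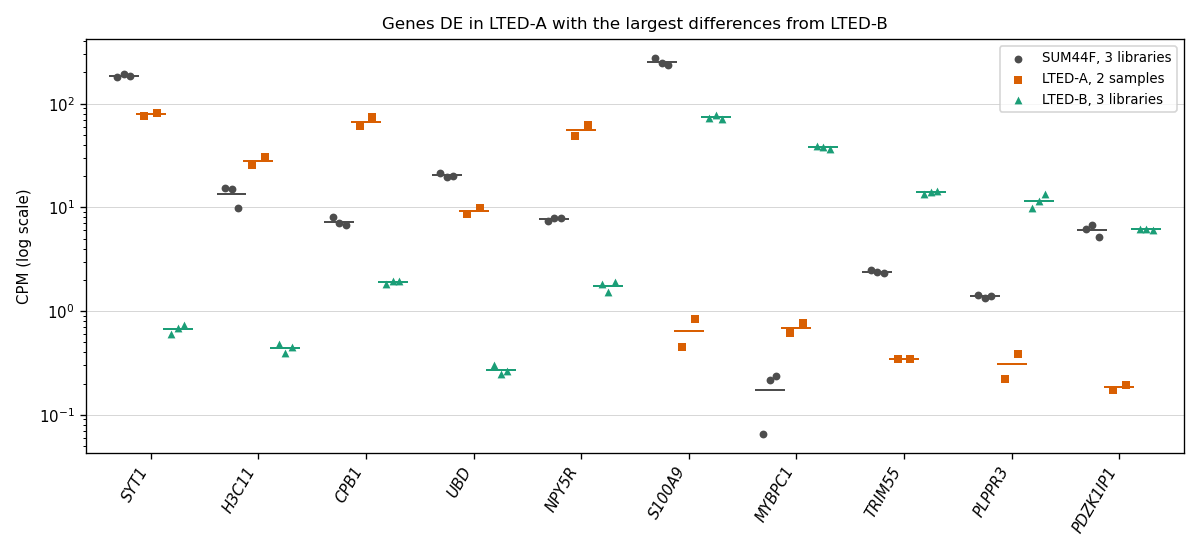
Normalized CPM on a log scale of the 5 genes with the largest positive (left) and the 5 with the largest negative difference between LTED-A and LTED-B among genes DE in LTED-A, with circles for SUM44F, squares for LTED-A and triangles for LTED-B and short lines for group means. SYT1 is at 76.6 and 80.6 CPM in LTED-A and below 1 CPM in LTED-B, while MYBPC1 is below 1 CPM in LTED-A and at 36.3 to 39.1 CPM in LTED-B.

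Other changes were not called different between the variants. The mean level of TFF1 in LTED-B was 322 CPM (difference 0.07), that of ESR1 1359 CPM (0.05) and that of SLC7A11 95.4 CPM (0.13). That of CCND1 was 1476 CPM (0.14) and that of OAS1 31.3 CPM (0.38, SE 0.10). These 5 differences all lay below the fold change of 1.5 that a call needs, so none could be called. The lists for mitosis, DNA replication and the stress responses had 59, 40 and 20 members that rose in LTED-B, with medians of 1.16, 0.91 and 0.94, beside 56, 37 and 18 in LTED-A. OXCT1, in contrast, had a mean of 7.46 CPM in LTED-B and was higher in LTED-A (3.24, SE 0.11, adjusted p = 2.2e-11).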

How the data were processed

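Total RNA-Seq libraries (TruSeq Stranded) were quantified by the authors with Salmon 0.6.0 against hg38 and Ensembl 82. The deposited values are estimated counts per gene (expected counts, not normalized), and the strand setting is not given in the sources used here. Of 60619 genes, 56434 were matched by Ensembl ID to GENCODE 44 for symbols, gene types and coordinates, and 7473 had no count in any library. Counts were rounded to whole numbers. Total counts ranged from 39941907 to 134882175 in the 6 libraries, and intervals and limits set by 3 counts cover counting error only.

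LTED-A replicates 2 and 3 were averaged. Genes with low counts were removed with filterByExpr, counts were normalized by TMM, and a quasi-likelihood model with robust dispersions was fitted in edgeR 4.0.16 (R 4.3.3, limma 3.58.1) to SUM44F, LTED-A and LTED-B with group as the only term. DE means a fold change above 1.5 and a Benjamini-Hochberg adjusted p under 0.001. The SE was obtained from the fold change and the F statistic. The procedure was tested on simulated data.

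Members and the 40 gene lists were chosen with earlier results of these data known. The named genes were the 15 largest rises and falls among protein-coding genes of at least 1 CPM, the 3 among long noncoding RNAs, the 10 among genes of at least 50 CPM, the largest in each list with other members, the 5 largest differences from LTED-B in each direction among genes of at least 5 CPM, and the 3 most abundant genes of each stretch. Some genes that the rule names are not reported here. COL3A1 and MT-ND4 were added after their values were seen, as were the 5 other genes led by COL3A1 in SUM44F replicate 1.

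Alternatives were DESeq2 1.42.0, RLE size factors, other filters and thresholds, other samples in the fit, thinned counts, a replicate block, leaving out libraries and other windows. A depth block, SUM44PE as the parental group and dispersions that were not robust were added after the data were seen. Tables and figures were made with Python 3.11.15, pandas 2.3.3, numpy 2.4.6, scipy 1.17.1 and matplotlib 3.10.9. Promoter sequences are from RefSeq.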

Additional observations from a re-analysis of the deposited data

Results flagged for a closer look

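By the edgeR quasi-likelihood test of the difference itself, 85 of the 221 genes named above differed between the LTED-A and LTED-B derivations. Of all 26834 genes tested, 9.04% differed. Each value that follows is the log2 fold change of LTED-A minus that of LTED-B, with 2 LTED-A and 3 LTED-B samples, so that a positive value means a higher level in LTED-A. Many of these genes were named for their change in LTED-A, whose samples enter both comparisons, which favours the same direction in advance. The 5 largest differences from LTED-B in each direction were named because they passed this test, so their passing was fixed in advance. The count of 85 is therefore no result about the named genes. The causes of these differences were not tested.

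Among genes that fell in LTED-A, S100A9 (-6.70), PIP (-2.98), S100A7 (-2.94) and S100A8 (-1.78) were lower than in LTED-B. So were SLC5A8 (-2.94), PDE4B (-2.13), NTRK2 (-3.03), RAB31 (-1.20) and MET (-1.37). ORM1, below detection in LTED-A, had a fitted difference of -8.09, which is no bound. Of genes that rose in LTED-A, ELOVL4 (3.87), ROBO1 (2.24), STEAP1 (1.05), ABTB3 (1.28), SPAG6 (0.80), CPB1 (5.13), FZD10 (1.39), FZD10-AS1 (1.56), ELOVL2-AS1 (3.66) and S100P (1.503) were higher than in LTED-B, and BMPR1B (-1.97) was lower.

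Hormone and luminal genes divided. TFF3 (1.96), XBP1 (0.91), SPDEF (0.64), STS (0.92), PPARD (1.13) and IRS1 (1.46) were higher in LTED-A, while GRHL1 (-1.55), KLF5 (-1.78) and NR4A2 (-1.19) were lower. In the cell cycle and repair lists, SKA3 (1.92), BRCA2 (1.93), CDC45 (1.25), CHEK2 (0.94), CENPE (0.90), MCM5 (0.83) and E2F2 (0.79) were higher, and the inhibitor CDKN1A (-1.08) was lower. SKA3 and BRCA2 lie in the stretch of chromosome 13 that was higher, and CDC45 and CHEK2 in that of chromosome 22. Of the whole lists, 3 mitosis genes were higher and 3 lower than in LTED-B, 1 and 2 E2F and pocket protein genes, and 1 and 3 genes of the G1 list.

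Among lipid genes, OXCT1 (3.24), ELOVL2 (1.86), ELOVL6 (1.11), SREBF2 (1.08) and MSMO1 (0.60) were higher in LTED-A, and HADHB (-0.66) and ACADS (-0.62) were lower. In signalling, HEY2 (2.48), INHBB (1.99), KLF2 (1.29), FGFR4 (1.12), PDGFB (0.82) and the glucose transporter SLC2A10 (1.37) were higher, while PHLDA1 (-1.60), BMP5 (-1.31), GDF15 (-0.96), FGFR1 (-0.67), SLC2A3 (-1.39), BOK (-2.63) and ERAP2 (-1.07) were lower. Of matrix and epithelial genes, COL12A1 (3.71), TCF4 (2.54), KRT7 (1.62), ITGB6 (1.21), DSG2 (0.82) and LAMB3 (0.76) were higher, and FN1 (-2.19) and LAMB1 (-1.66) were lower.

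On chromosome 13, the noncoding entry named SPATA13 (3.98), SLC7A1 (1.98), ATP8A2 (1.92), RPL21 (1.64), HMGB1 (1.05) and MYO16 (1.78) were higher in LTED-A, and DNAJC3 (-1.54), TM9SF2 (-1.10) and LAMP1 (-1.06) were lower. On chromosome 6, H1-2 (-0.78) and SOX4 (-0.72) were lower. The genes with the largest differences by the rule for named genes were SYT1 (6.82), H3C11 (5.98), UBD (5.09) and NPY5R (4.99) above LTED-B, and MYBPC1 (-5.73), TRIM55 (-5.34), PLPPR3 (-5.14) and PDZK1IP1 (-5.03) below it.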

How the results depend on the processing

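The number of genes higher in LTED-A than in SUM44F was 917 with a fold change minimum of 2, and the number lower was 3731 at an adjusted p under 0.05. With SUM44F and LTED-A alone in the fit, 1547 of 26511 genes were higher and 1814 lower, and 14 named DE genes lost the call. The ranges that follow do not include this fit. Leaving out libraries gave 1605 to 1989 higher and 1486 to 2271 lower genes, the lowest number of falls without LTED-A replicate 1. The share of higher calls among DE genes was 46.3%, and it was 50.99% with DESeq2, 54.9% without LTED-A replicate 1 and 36.2% with a fold change minimum of 2. For LTED-A against LTED-B, the number higher was 656 with a fold change minimum of 2 and 1986 at an adjusted p under 0.05, and the number lower was 660 with a fold change minimum of 2 and 625 to 1363 when libraries were left out, the lowest without LTED-A replicate 1 and the highest without SUM44F replicate 1. The number of stretches was 18 with windows of 20 genes moved by 10, 5 with windows of 80 moved by 40 and 3 with a median beyond 0.7, and both stretches of chromosome 13 were found under each alternative. The stretches of chromosomes 16 and 19 were not found with windows of 80 genes, at 1 CPM, beyond 0.7, with protein-coding genes only or against SUM44PE, and that of chromosome 19 not without LTED-A replicate 1. The stretch of chromosome 20 was not found with windows of 80 genes, at 1 CPM or beyond 0.7, that of chromosome 6 not beyond 0.7 or without LTED-A replicates 2 and 3 (median 0.39), the second of chromosome 22 not beyond 0.7 or against SUM44PE, and the first of chromosome 22 not against SUM44PE.

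Among named genes, the log2 fold change of GREB1 was -0.02 and changed sign to 0.0166 with DESeq2, 0.0163 with RLE size factors and 0.0073 with SUM44PE in the fit. It ranged from -0.0669 to 0.0420 when libraries were left out, with 0.0270 without SUM44F replicate 1 and 0.0179 without replicate 2. With SUM44PE as the parental group, IRS4 was at -0.0577, ST13 at -0.0686 and ZC3H7B at -0.171. The cause was not tested. Of 202 DE genes named, 46 lost the call under at least 1 alternative, 21 of them with SUM44PE as the parental group.

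With the mean of LTED-A replicates 2 and 3 numbered 2, deviations of same-numbered replicates had r from -0.225 to 0.154 (7 pairs, 12005 genes). The same mean had r of 0.218 with SUM44F replicate 3 and 0.136 with LTED-B replicate 3. With 2 LTED-A samples the deviations of 1 mirror those of the other, so these values cannot decide whether the numbers pair the samples. With a replicate block, 1750 genes were higher and 2215 lower, and SLCO2B1, CTTNBP2, PPARD, GATA3 and COL12A1 lost their calls. For LTED-A against LTED-B the block gave 994 higher and 1240 lower. Low counts limit the folds of genes below detection to lower bounds, and with 2 LTED-A samples of 1 derivation the spread between derivations is not measured.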
